A study of Mus musculus with 4 samples.

Results

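The 82 genes described here encode proteins of the cytosolic ribosome, the particle that translates messenger RNA into protein outside the mitochondria. They were chosen by symbol from the 11049 genes that the deposited tables of the hypertension and control libraries share: a symbol starting with Rps or Rpl and then a digit, or p and a digit, without the Rps6k kinase genes and without genes named as pseudogenes. Of the 82, 30 encode standard proteins of the small (40S) subunit and 46 standard proteins of the large (60S) subunit. The other 6 match by symbol only: the paralogs Rpl22l1, Rpl36al, Rpl7l1, Rps27l and Rps27rt, and Rps19bp1, which encodes a protein that binds Rps19. The rule left out 8 S6 kinase genes and the pseudogenes Rpl10-ps3 and Rpl9-ps6. It also missed standard subunit genes whose symbols do not match it, such as Rpsa and Fau.

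Each ribosome needs 1 copy of almost every one of these proteins, so their messenger RNAs are abundant and present in every cell type. Their messenger RNAs characteristically begin with a cytosine and a run of pyrimidines, the 5' terminal oligopyrimidine (TOP) tract, through which the mTOR pathway and its partner Larp1 control their translation together. In droplet single-cell RNA data they are among the most counted transcripts, and the fraction of a cell's transcripts they take differs widely between cell types.

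The cells came from kidneys of C57BL/6J mice aged 10 to 14 weeks. There were 4 groups: hypertension induced with angiotensin II (label A2 HTN), its saline control (A2 Ctrl), salt-sensitive hypertension (SS HTN), and its control on a normal diet (SS Ctrl). The labels give no dose, duration or genetic change, and do not say what made the mice of the salt-sensitive model hypertensive. Kidneys of a group were pooled and dissociated, and beads carrying antibody to CD31 (the product of Pecam1 on the endothelial surface), and afterwards to podoplanin, were used to take cells out. Each group is therefore 1 library of pooled animals with no replicate. The control table holds 2 libraries told apart by their barcode ending, here control library 1 and control library 2, and the sources used here do not assign them to a model. With 1 library per group no difference was tested: intervals are 95% exact intervals of the counting error alone. UMIs (unique molecular identifiers) each stand for 1 captured transcript, and CPM is the UMIs of a gene scaled to 1000000 over the shared genes.

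Cells were called endothelial where Pecam1, Cdh5, Kdr and Tie1 together had at least 3 UMIs and at least 12 per 10000 UMIs. This gave 1225 endothelial and 1612 other cells for angiotensin II, 1519 and 1765 for salt-sensitive hypertension, 19 and 2387 for control library 1, and 126 and 1882 for control library 2. The libraries held 7385192, 6408174, 2775302 and 1713062 UMIs of the shared genes in that order, and any 2 of them shared between 0 and 2 barcodes. Control library 1 stood apart: besides having 19 endothelial cells, its endothelial sum carried 8441 CPM of 11 proximal tubule markers, against 739 to 1347 CPM in the other 3 libraries, so sums over control are also given for each control library, and those of single genes where stated. Most other cells carried tubule transcripts in all 4 libraries, with 16845 to 18922 CPM of the proximal tubule markers. A cell at 3 endothelial UMIs, just inside the rule, had a ribosomal protein share between 1.18% and 12.3% by library, and a cell at 2 UMIs, just outside it, between 1.51% and 7.15%. Doublets were not removed.

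RefSeq start sites were available for 62 of the 82 genes. The windows below run from 15 bases before to 15 bases after the annotated start on GRCm38.p6, the assembly of mm10, and are shown because the TOP tract is the sequence feature these genes are known to share. Capitals mark an unbroken pyrimidine run that begins with a C at the start itself. The first 7 lines carry one, and the last 5 belong to members the results turn on whose annotated start carries none or a short one.
Rpl15 (chr14:18270972-18271001, minus strand): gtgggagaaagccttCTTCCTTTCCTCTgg
Rpl35a (chr16:33056467-33056496, plus strand): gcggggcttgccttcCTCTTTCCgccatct
Rpl38 (chr11:114668565-114668594, plus strand): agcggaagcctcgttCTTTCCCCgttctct
Rps21 (chr2:180257364-180257393, plus strand): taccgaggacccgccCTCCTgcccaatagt
Rps6 (chr4:86857353-86857382, minus strand): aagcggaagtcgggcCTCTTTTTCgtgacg
Rps27 (chr3:90213634-90213663, minus strand): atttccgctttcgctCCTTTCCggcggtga
Rps27rt (chr9:114982725-114982754, minus strand): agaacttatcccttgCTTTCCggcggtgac
Rps28 (chr17:33824548-33824577, minus strand): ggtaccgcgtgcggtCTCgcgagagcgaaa
Rpl41 (chr10:128549154-128549183, minus strand): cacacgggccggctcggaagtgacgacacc
Rpl5 (chr5:107900513-107900542, plus strand): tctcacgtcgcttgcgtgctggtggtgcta
Rplp0 (chr5:115559452-115559481, plus strand): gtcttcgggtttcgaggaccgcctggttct
Rps15 (chr10:80292416-80292445, plus strand): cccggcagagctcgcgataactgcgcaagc

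A C at the start followed by at least 4 more pyrimidines was annotated for 14 of the 62 members (22.6%) and for 3.07% of the 8701 other shared genes with a start site. A run of at least 7 pyrimidines anywhere within the 30 bases, on the gene's own strand, was found in 53.2% of the members and 22.1% of the other shared genes, and this count overlaps with the first. In Rpl27a the run begins before the annotated start and spans it, and in Rpl13a it begins after the start, so the match at the exact base depends on how the start was annotated. The 14 members with the tract at the annotated start and the 48 without it had similar median log2 ratios between the hypertension models in endothelial cells, -0.29 and -0.23.

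Endothelial cells gave close to 10% of their UMIs to the 82 genes in 3 of the 4 libraries, and other cells gave a few percent. In endothelial cells the members held 9.74% of UMIs (9.72 to 9.76) for angiotensin II, 11.6% (11.56 to 11.62) for salt-sensitive hypertension, 6.53% (6.27 to 6.79) for control library 1 and 10.4% (10.3 to 10.5) for control library 2. The salt-sensitive library was highest and the 19 cells of control library 1 were lowest. In other cells the shares were 2.93%, 3.29%, 1.15% and 3.77% in the same order, with control library 2 highest and control library 1 lowest. A share is relative, so fewer ribosomal protein transcripts and more of all others cannot be told apart.

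The spread between cells of 1 library was wider than the distance between the medians of the angiotensin II, salt-sensitive and control 2 libraries. The middle 50% of endothelial cells lay between 7.63% and 11.6% in the angiotensin II library, between 8.64% and 13.8% in the salt-sensitive library and between 8.07% and 12.4% in control library 2, around medians of 9.40%, 11.04% and 10.8%. These ranges overlap. Control library 1 had a median of 3.96%, with a middle range from 1.02% to 10.8%, so its 19 barcodes joined cells with shares like those of the other libraries and cells with shares near those of non-endothelial barcodes. Median depths of the endothelial cells were 4734, 2343, 1995 and 2809.5 UMIs. Among endothelial cells of 1000 to 3000 UMIs the shares were 10.01%, 11.2%, 6.97% and 10.99%, and above 3000 UMIs they were 9.72%, 12.04%, 5.45% and 10.01%.

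**Figure D1:**
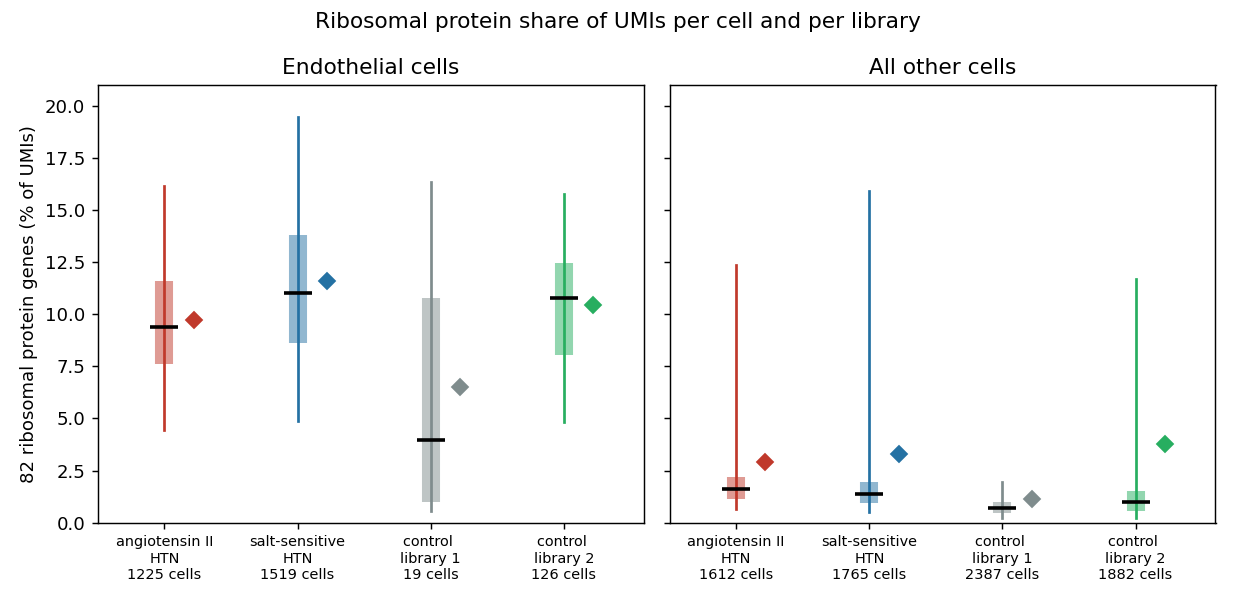
Share of UMIs from the 82 ribosomal protein genes (vertical axis, percent) in endothelial cells (left) and all other cells (right) of the 4 libraries. Thin lines span the 5th to 95th percentile of cells, thick bars the middle 50%, black dashes the median cell, and diamonds the share over all UMIs of the library; endothelial medians are 9.40%, 11.04%, 3.96% and 10.8%, and those of other cells 1.60%, 1.35%, 0.707% and 0.990%.

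Barcodes rich in tubule transcripts had low ribosomal protein shares, in other cells with no steady fall above 1% of tubule markers. Other cells at 0.5% to 1% gave 3.95%, 11.1%, 3.68% and 9.68% in the angiotensin II, salt-sensitive, control 1 and control 2 libraries. Those under 0.5% gave 14.96%, 16.2%, 17.0% and 20.5%. Other cells in which 21 tubule markers (11 proximal, 10 distal or collecting duct) made up at least 1% of UMIs gave 1.77%, 1.41%, 0.911% and 1.195% of their UMIs to the members in the angiotensin II, salt-sensitive, control 1 and control 2 libraries. Other cells below that limit gave 12.9%, 15.6%, 10.6% and 18.4%, as much as endothelial cells or more. There were 159, 207, 68 and 149 such cells. Of these, 61, 139, 11 and 33 carried 1 or 2 endothelial UMIs and gave 12.2%, 15.5%, 12.8% and 24.5%. Whether they are endothelial cells that missed the rule was not tested. Within the endothelial class, the 9 cells of control library 1 with under 0.5% tubule markers had a share of 9.70%, and the 5 cells with 2% to 4% had 0.833%. Endothelial cells at 0.5% to 1% were not lower than those under 0.5% in the angiotensin II library (10.3% in 12 cells against 9.82%) or in control library 1 (16.1% in 2 cells). Nuclear RNA, like tubule markers, was lower in endothelial than in other cells of each library. Of its 3 listed markers (Malat1, Neat1, Kcnq1ot1), 2 were measured. They summed to 346, 429, 2969 and 501 CPM in endothelial cells and to 3289, 3579, 5009 and 4416 CPM in other cells. Among other cells, control library 1 was highest for nuclear RNA and lowest for the proximal tubule markers. The part of these transcripts in the differences between libraries was not tested beyond the restricted values given here.

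**Figure D2:**
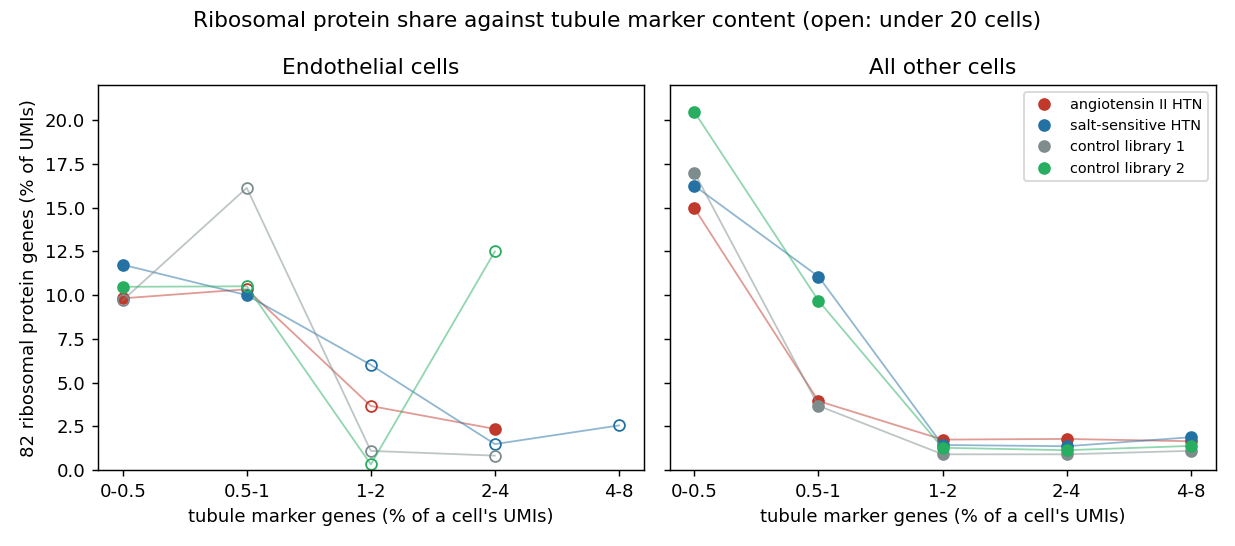
Share of UMIs from the 82 ribosomal protein genes (vertical axis, percent) against the share of a cell's UMIs from 21 tubule markers (horizontal axis, bins in percent), for endothelial cells (left) and all other cells (right); each point is 1 library and bin, and open points hold under 20 cells. In other cells all 4 libraries lie between 14.96% and 20.5% in the lowest bin and between 0.910% and 1.75% in the bin from 1% to 2%.

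Within the endothelial class the share also followed the vessel type. Cells whose leading vessel markers were arterial (Sox17, Gja4, Gja5, Efnb2 and Fbln5, of which 4 are in the tables) gave 13.5% in 88 angiotensin II cells and 14.1% in 260 salt-sensitive cells. Cells led by glomerular markers gave 8.53%, 9.56% and 8.93% in the angiotensin II (46 cells), salt-sensitive (199 cells) and control 2 (15 cells) libraries. Cells led by capillary markers, the most numerous, gave 9.50% (1032 cells), 11.3% (884 cells), 11.97% (5 cells of control library 1) and 10.7% (103 cells of control library 2). Cells led by venous markers gave 10.7% in both hypertension libraries (11 and 36 cells), above the capillary share in the angiotensin II library and below it in the salt-sensitive library. Arterial cells were highest and glomerular cells lowest of the 4 vessel types in both hypertension libraries, and the capillary sets of control libraries 1 and 2 lay closer together than their whole endothelial sums. Other cells with at least 5 UMIs of the macrophage markers (4 of the 8 listed were measured) gave 19.0% in 34 cells of control library 2. They gave 22.01% in 11 cells of control library 1.

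All 82 members were measured well enough to compare, but their levels spanned a wide range. Counting at the 3' end gives 1 UMI per transcript whatever its length, so CPM are set side by side here without a length correction. In endothelial cells of the angiotensin II library the levels ran from 36.7 CPM (Rps19bp1) over a median of 1163 CPM to 2837 CPM (Rps29), and in the salt-sensitive library from 38.6 over 1347 to 4334 CPM for the same genes. The 6 members with the highest mean endothelial level were Rps29, Rps21, Rps27, Rpl37a, Rps24 and Rpl41, which encode small proteins of both subunits. Rps29 stood at 2837, 4334, 2416 and 3955 CPM in the angiotensin II, salt-sensitive, control 1 and control 2 libraries. Rps21 stood at 2325, 3190, 2678 and 2673 CPM, and Rps27 at 2438, 3129, 2154 and 3023 CPM. Each of these 3 was highest in the salt-sensitive library. Rpl41, which encodes the shortest ribosomal protein, was at 1805, 2692, 1252 and 2550.5 CPM. The paralogs and Rps19bp1 closed the list with Rpl15, Rpl36al at 309.5, 308.6, 291.1 and 338.1 CPM and Rpl7l1 at 77.5, 77.2, 58.2 and 84.5 CPM.

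**Figure D3:**
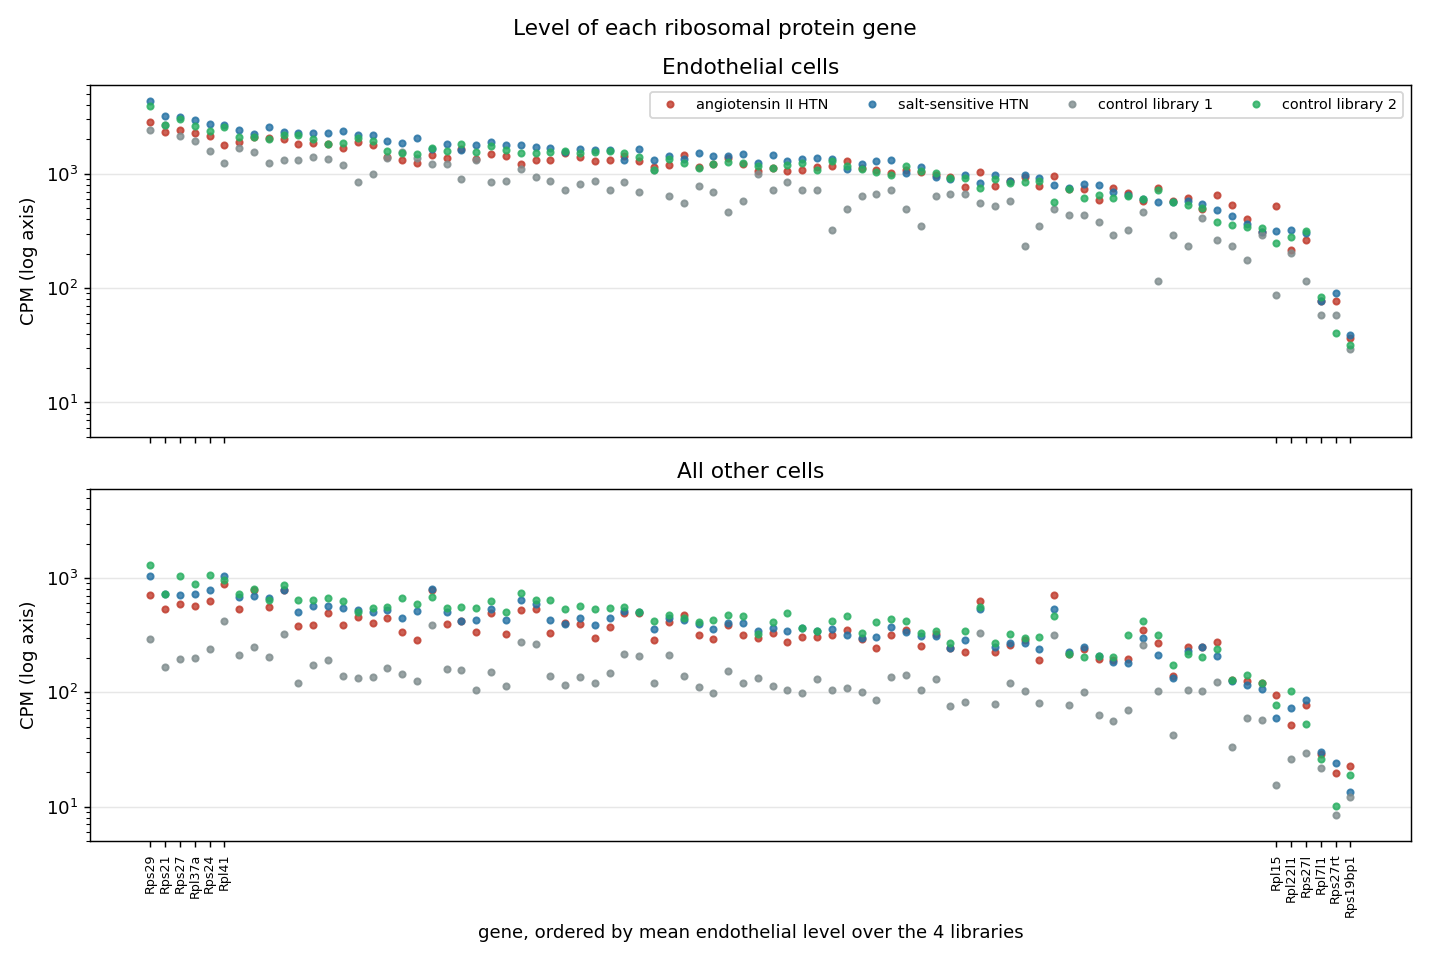
Level of each member in CPM (vertical axes, log scale) in endothelial cells (top) and all other cells (bottom), with genes ordered by mean endothelial level, 1 point per library, and names for the 6 genes at each end. Rps29 leads at 2416 to 4334 CPM in endothelial cells, and the grey points of control library 1 lie below those of the other 3 libraries for most genes in both panels.

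Every member was higher in endothelial cells than in the other cells of the same library taken as a whole, in all 4 libraries. Summed over members the log2 ratio was 1.73 (1.72 to 1.75) for angiotensin II, 1.82 (1.81 to 1.83) for salt-sensitive hypertension, 2.50 (2.44 to 2.56) for control library 1 and 1.47 (1.45 to 1.49) for control library 2. Among genes with at least 20 UMIs over both classes, a log2 ratio of CPM + 5 of at least 0.5 was reached by 81 of 82 members in the angiotensin II library, where 28.2% of all tested genes reached it, and by all 82 in the salt-sensitive library (26.6% of all genes). It was reached by 81 in control library 1 (28.3% of all genes) and by 80 in control library 2 (28% of all genes). The other class was mostly tubule-marked. Its cells under 1% tubule markers gave 12.9%, 15.6%, 10.6% and 18.4% of UMIs to the members in the 4 libraries in this order. Those shares lie above the 9.74%, 11.6%, 6.53% and 10.4% of endothelial cells. The pseudocount of 5 CPM understates differences of low genes, and the intervals are those of the plain ratio, so for low genes the printed ratio can lie near or past their edge.

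The excess of endothelial cells over the other class as a whole was not the same for all members. Averaged over the 4 libraries the log2 ratio was largest for Rps21 (2.52, libraries from 1.87 to 3.96), Rps23 (2.39, 1.77 to 3.38) and Rpl30 (2.28, 1.51 to 3.59). It was smallest for Rps15 (0.47, 0.30 to 0.62), Rpl13a (0.62, 0.43 to 0.72) and Rpl10a (0.77, 0.51 to 1.003). Rps15, a protein of the small subunit head, was at 717, 540, 320 and 464 CPM in other cells, above the median member of 324, 381, 123 and 454 CPM. In endothelial cells it was at 949, 805, 495 and 571 CPM, below the median member of 1163, 1347, 713 and 1215 CPM. Rps21, by contrast, was at 541, 721, 168 and 726 CPM in other cells.

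Between the hypertension models, most members were a little lower in angiotensin II than in salt-sensitive endothelial cells, and 20 were higher, 14 of them standard large subunit genes. The summed log2 ratio was -0.25 (-0.26 to -0.24), a fold of 0.841, and 62 of the 82 members were lower. The lowest were Rps28 and Rps29 of the small subunit and Rpl41 of the large one, and the highest were Rpl15, Rpl5 and Rplp0. A log2 ratio of -0.5 or less was found for 5 members (Rps28, Rps29, Rpl41, Rpl22l1 and Rpl38), against 9.83% of all tested genes. A log2 ratio of at least 0.5 was found for Rpl15 alone, against 5.27% of all tested genes. Both shares of members are below those of all genes, while the median of the members was -0.24 and that of all genes -0.03. All tested genes include those with as few as 20 UMIs. Members had at least 356 UMIs in this comparison, so the shares are not set side by side at like depth. Of the 82 member intervals, 57 lay wholly below 0 and 13 wholly above it.

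Rps28, a small subunit protein next to the messenger RNA exit, was at 1255, 2046, 1368 and 1495 CPM in endothelial cells of the angiotensin II, salt-sensitive, control 1 and control 2 libraries. The salt-sensitive value stands above the other 3, and the log2 ratio between the models was -0.70 (-0.75 to -0.66). Rps29, with the levels given above, had a log2 ratio of -0.61 (-0.64 to -0.58), and Rpl41 one of -0.58 (-0.62 to -0.54). Rpl38, a large subunit protein linked to the translation of developmental messenger RNAs, was at 1231, 1801, 1106 and 1519 CPM and had a log2 ratio of -0.55 (-0.60 to -0.50). For each of Rps29, Rpl41 and Rpl38 the angiotensin II value lies below both the salt-sensitive library and control library 2.

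Rpl15, a large subunit protein needed for early 60S assembly, was at 521, 315, 87.3 and 248 CPM in endothelial cells, highest in the angiotensin II library. Its log2 ratio between the models was 0.72 (0.63 to 0.82). Rpl5 binds the 5S ribosomal RNA together with Rpl11 in the 5S RNP, the particle that also restrains Mdm2 when ribosome assembly is disturbed. Rpl5 was at 649, 481, 262 and 379 CPM and had a log2 ratio of 0.43 (0.35 to 0.51), whereas Rpl11 was at 1087, 1019, 495 and 1166 CPM with a ratio of 0.09 (0.03 to 0.15). The 5S RNP partners thus differed in size of ratio.

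The stalk that recruits elongation factors to the 60S subunit is built from Rplp0 and pairs of Rplp1 and Rplp2. Rplp0, its base, was at 756, 569, 116 and 717 CPM, and its log2 ratio between the models was 0.41 (0.34 to 0.48). Rplp1 was at 2091, 2235, 1543 and 2122 CPM with a ratio of -0.10 (-0.14 to -0.06), and Rplp2 at 1138, 1331, 1077 and 1087 CPM with a ratio of -0.23 (-0.28 to -0.17). The 3 stalk genes therefore lay on different sides of 0.

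**Figure D4:**
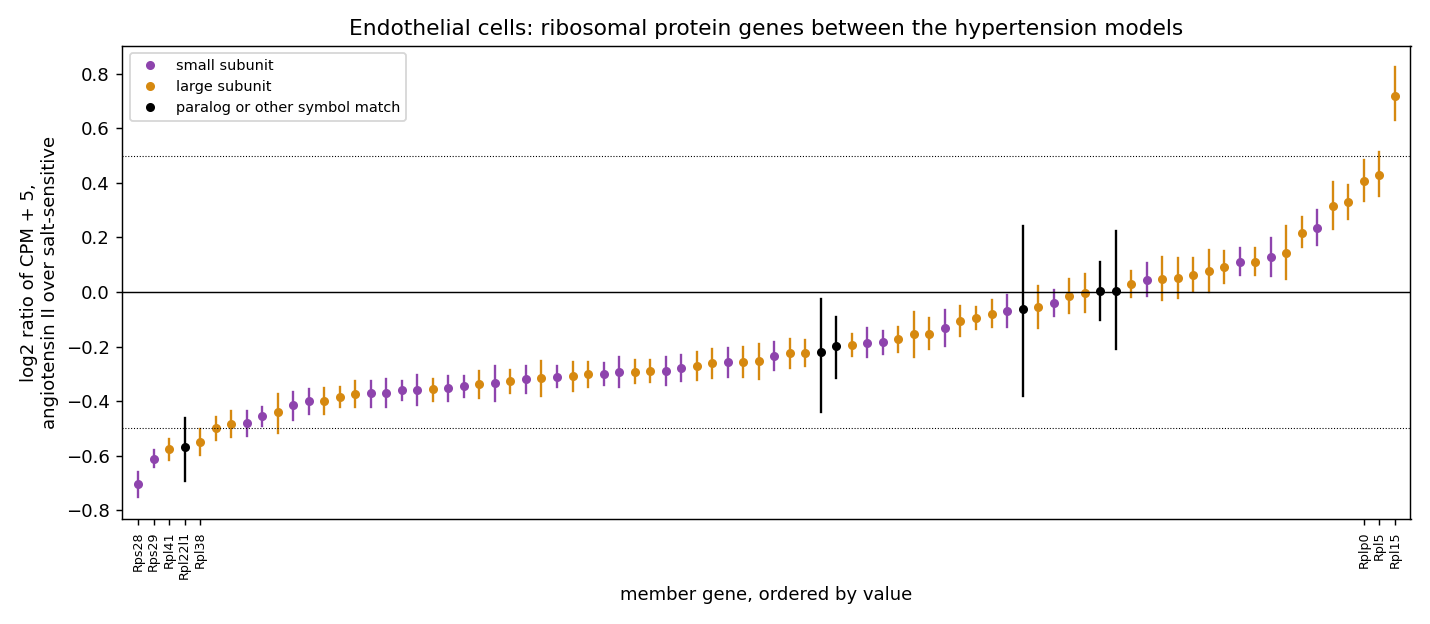
Log2 ratio of CPM + 5 between the angiotensin II and salt-sensitive libraries in endothelial cells (vertical axis) for each of the 82 members, ordered by value, with names for the 5 lowest and 3 highest; bars are 95% exact intervals of the plain ratio (counting error only) and dotted lines mark 0.5 and -0.5. 62 members lie below 0, from -0.70 for Rps28, and 20 above it, up to 0.72 for Rpl15.

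Small subunit genes were lower than large subunit genes in this comparison. The median log2 ratio was -0.30 over the 30 small subunit genes, of which 26 were lower in the angiotensin II library, and -0.18 over the 46 large subunit genes, of which 32 were lower. In endothelial cells the large subunit genes had 1.29 UMIs for each UMI of small subunit genes under angiotensin II and 1.19 in salt-sensitive hypertension. In control libraries 1 and 2 they had 1.23 and 1.24, with the paralogs and Rps19bp1 left out of these counts. In other cells the ratio was 1.46, 1.35, 1.66 and 1.29.

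The ratios between the models followed coding length. The 27 members with the shortest coding sequence (75 to 390 nucleotides) had a median log2 ratio of -0.37 and 26 of them were lower in angiotensin II endothelial cells. The 28 of middle length had a median of -0.20 with 21 lower, and the 27 longest (564 to 1257 nucleotides) had a median of -0.05 with 15 lower. Spearman's rho between log2 ratio and coding length was 0.58 across the 82 genes, which share their libraries and so are no independent replicates. Across 1845 other genes of at least 100 CPM it was -0.22, in the opposite direction. In other cells rho across members was 0.47, and the median ratios were -0.29, -0.09 and -0.03 from the shortest to the longest members. The salt-sensitive library over the summed control gave no such order in endothelial cells, with a rho of -0.18 and medians of 0.21, 0.18 and 0.19. Over control library 1 alone it gave a rho of 0.29 with medians of 0.61, 0.89 and 0.94, and over control library 2 alone a rho of -0.22. The angiotensin II library over the summed control gave 0.59 with medians of -0.17, -0.03 and 0.07. In cells of 1000 to 3000 UMIs its shortest and longest members had medians of -0.035 and -0.0058, so most of that distance was not found there. That range held only 143 of the 1225 angiotensin II endothelial cells, set against 14 and 64 of control libraries 1 and 2. Control library 2 over control library 1 gave a rho of 0.34 in endothelial cells, with medians of 0.46, 0.83 and 0.74, and of -0.22 in other cells. These comparisons share libraries and are given side by side only.

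**Figure D5:**
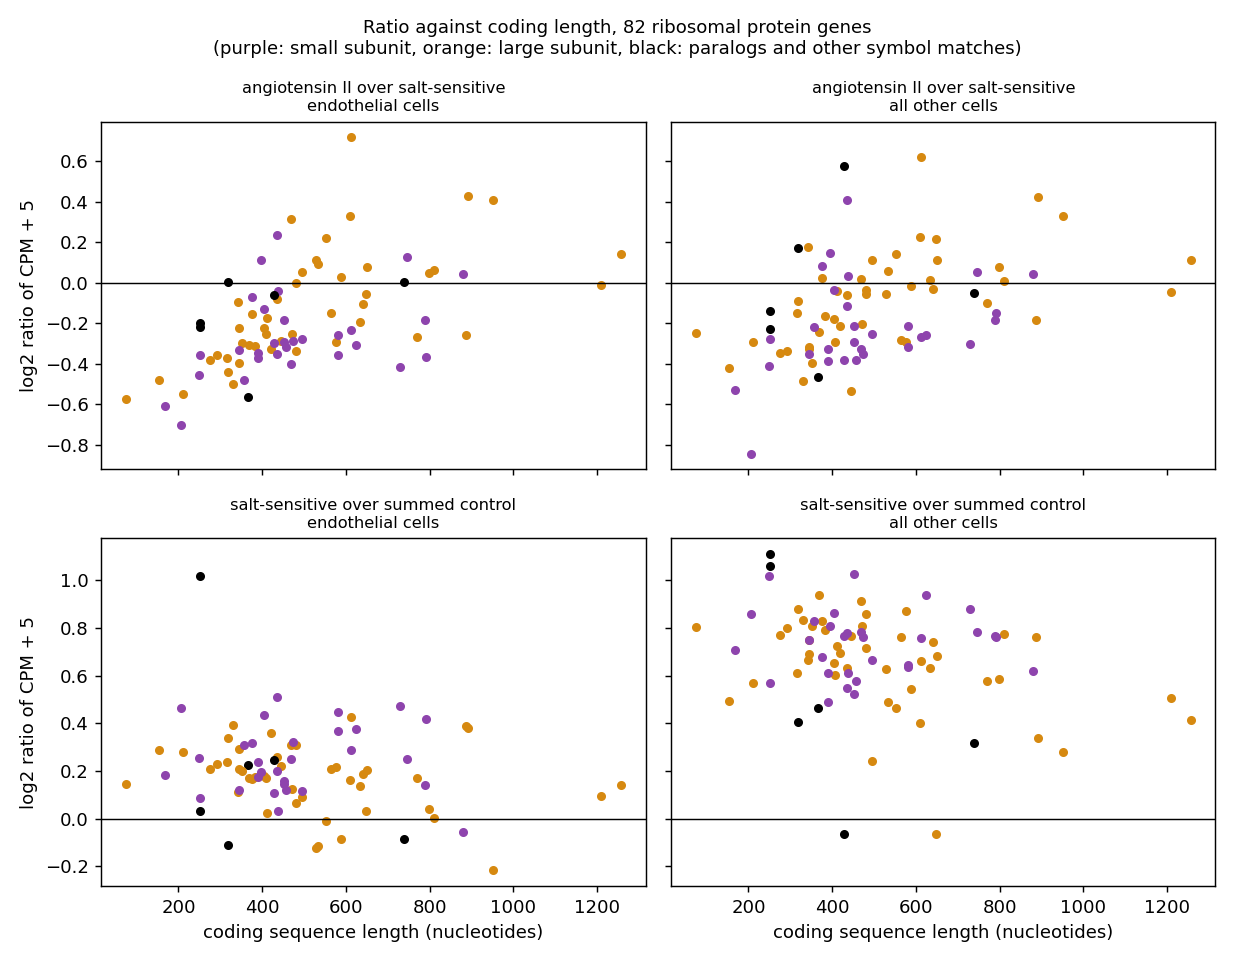
Log2 ratio of CPM + 5 (vertical axes) against coding sequence length in nucleotides (horizontal axes) for the 82 members, with the angiotensin II over the salt-sensitive library on top, the salt-sensitive library over the summed control below, endothelial cells left and other cells right. In the top left panel the 27 shortest members have a median of -0.37 and the 27 longest of -0.05, while the lower left panel, over the summed control, has no such slope.

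Counts of short members also depended on the deposited table. A further table joins both hypertension libraries. In it the 2727 angiotensin II cells found in both tables keep 88.2% of the UMIs they have in the separate table, and the 3251 salt-sensitive cells keep 100%. The loss in angiotensin II cells differed between members: the median member kept 93.6% of its UMIs, but Rps27rt kept 70.9%, Rps28 78.3%, Rpl15 80.7%, Rps29 81.1% and Rpl38 82.4%. Across 1540 genes of at least 1000 UMIs the middle 90% kept between 78.6% and 94.1%. The kept percentage and coding length had a Spearman's rho of 0.46 across the 82 members. With the joined table the log2 ratio of Rps28 between the models in endothelial cells became -0.96 and that of Rps29 -0.82, 11 members in place of 5 were at -0.5 or less, and the medians of the shortest and longest members became -0.46 and -0.06. These ratios were taken over all 2881 angiotensin II and 3273 salt-sensitive cells of the joined table, with the endothelial rule applied again. The separate tables hold 2837 and 3284 cells, so UMI loss and a changed set of cells are not told apart. The part of the UMI loss in the ratios from the separate tables was not tested.

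In restricted sets of cells Rps28, Rps29, Rpl41, Rpl15, Rpl5 and Rplp0 kept their side of 0, but Rps29 and Rpl41 passed the -0.5 threshold no longer in cells of limited depth. Among capillary-range cells alone, Rps28 had a log2 ratio between the models of -0.71 and Rpl5 of 0.47, and the shortest and longest members had medians of -0.38 and -0.07. Among cells of 1000 to 3000 UMIs Rps28 was at -0.67, Rps29 at -0.47, Rpl41 at -0.26 and Rpl5 at 0.43. Medians there were -0.23 and -0.16 for the shortest and longest members, so the distance between short and long members was smaller. That range held 143 of the 1225 angiotensin II and 1065 of the 1519 salt-sensitive endothelial cells.

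Against control, the angiotensin II library showed no common shift of the members in endothelial cells, and the salt-sensitive library a small one upward. The summed log2 ratio over both control libraries was -0.05 (-0.06 to -0.03) for angiotensin II, with 35 members higher and 47 lower, and 0.20 (0.19 to 0.22) for salt-sensitive hypertension, with 74 higher and 8 lower. The median over all tested genes was -0.02 and -0.01. Against control library 2 alone the sums were -0.10 and 0.15, and against the 19 cells of control library 1 they were 0.58 and 0.83. The sign for the angiotensin II library thus turned with the control library. Between the control libraries themselves, library 2 over library 1, the sum was 0.68 and 55 of the 80 members with at least 20 UMIs reached 0.5, as did 40.6% of all tested genes.

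At the level of single members, 5 of 82 reached a log2 ratio of 0.5 in the angiotensin II over the summed control (11.8% of all tested genes) and 0 reached -0.5 (14.2%). These were Rpl15, Rpl5, Rps27rt, Rps15 and Rpl23a. Rpl15 had a log2 ratio of 1.14 (0.85 to 1.48), and of 1.06 (0.76 to 1.40) over control library 2 alone. Rpl5 had 0.81 (0.57 to 1.07) and Rps15 0.74 (0.55 to 0.95). Rpl23a, at 537, 431, 233 and 359 CPM, had 0.62 (0.38 to 0.89). The lowest were Rpl41 at -0.43 (-0.53 to -0.33), Rps29 at -0.43 (-0.51 to -0.35) and the paralog Rpl22l1 at -0.34 (-0.64 to -0.04). Over the few cells of control library 1, Rps29 was at 0.23 (-0.08 to 0.56), Rpl41 at 0.53 (0.10 to 0.996) and Rpl22l1 at 0.07 (-0.97 to 1.39), on the other side of 0. Rps27rt, with 2 UMIs there, was at 0.38 (-1.45 to 3.46), under the threshold.

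In the salt-sensitive library over the summed control 2 of 82 members reached 0.5 in endothelial cells (13.9% of all tested genes) and 0 reached -0.5 (13.7%). They were Rps27rt at 1.02 (0.38 to 1.92) and Rps15 at 0.51 (0.31 to 0.72). Rps15 was under 0.5 over control library 2 alone (0.49), in cells of 1000 to 3000 UMIs (0.45) and in capillary-range cells (0.34), which left 1 member in each. Rps3, a small subunit protein at the messenger RNA entry that also acts in DNA repair, was at 1143, 1526, 786 and 1131 CPM and had a ratio of 0.47 (0.33 to 0.62). Among the lowest were Rplp0 at -0.22 (-0.41 to -0.02) and Rpl11 at -0.12 (-0.26 to 0.03), the interval of Rpl11 reaching past 0. Over the few cells of control library 1 they were on the other side of 0, Rplp0 at 2.24 (0.93 to 4.17) and Rpl11 at 1.03 (0.36 to 1.82), and over control library 2 at -0.33 and -0.19. Rps27rt, Rps15 and Rpl15 (0.42, 0.12 to 0.76) were among the members above the summed control in both hypertension libraries.

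Other cells carried more ribosomal protein transcripts in both hypertension libraries than in the summed control, but over the whole class the direction turned without control library 1. The summed log2 ratio was 0.53 (0.52 to 0.55) for angiotensin II and 0.70 (0.68 to 0.71) for salt-sensitive hypertension. A ratio of 0.5 was reached by 47 members in the first (11.1% of all tested genes) and by 68 in the second (9.21%), and -0.5 by 0 in both (6.6% and 3.29%). Over control library 1 the sums were 1.34 and 1.51, and over control library 2 they were -0.36 and -0.20, on the other side of 0. Against control library 2, 25 and 7 members were at -0.5 or less, beside 8.09% and 6.1% of all tested genes, so the 7 of 82 are near the background. Library 2 over library 1 gave a sum of 1.71, and 79 of 82 members reached 0.5 there, where 10.9% of all tested genes did. The median cell of the other class had a share of 1.60%, 1.35%, 0.707% and 0.990%, in which both controls lie below both hypertension libraries. In control library 2 the 22 other cells above 3000 UMIs gave 22.1%, and its 8 and 34 cells with lymphocyte and macrophage markers 17.1% and 19.0%. Only 1 of the 6 listed lymphocyte markers and 4 of the 8 listed macrophage markers were measured. Among other cells with at least 1% tubule markers the log2 ratios over the summed control were 0.83 and 0.50. Shares of these cells were 1.77% and 1.41% in the hypertension libraries, above the 0.911% and 1.195% of control libraries 1 and 2.

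Named members in other cells ranged from ratios above the sums to ratios near 0. Rpl15 was at 95.2, 60.2, 15.3 and 78.1 CPM and had a log2 ratio of 1.28 (1.07 to 1.72) for angiotensin II over the summed control. Rps12 was at 473, 426, 140 and 445 CPM with 0.96 (0.84 to 1.10). At the other end lay Rpl22l1 at 0.00 (-0.37 to 0.35), Rps28 at 0.01 (-0.14 to 0.16) and Rpl39, one of the smallest large subunit proteins, at 0.07 (-0.07 to 0.21). For the salt-sensitive library the highest were Rps27l at 1.11, Rps27rt at 1.06 and Rps14, a protein of the small subunit platform, at 1.03 (0.92 to 1.16). The lowest were Rpl10a at -0.07 (-0.20 to 0.06), Rps19bp1 at -0.06 (-0.75 to 0.55) and Rpl12 at 0.24 (0.07 to 0.43). For each of Rpl15, Rps12 and Rpl12, control library 1 was the lowest of the 4. Over control library 2 alone, the angiotensin II ratios of Rps28, Rpl39 and Rpl22l1 were -1.05, -0.99 and -0.93, and those of Rpl15 and Rps12 0.27 and 0.09. Over control library 1 alone the same 5 genes were at 1.14, 1.19, 0.86, 2.30 and 1.72. For the salt-sensitive library over control library 2, Rps27l and Rps27rt were at 0.66 and 0.94, Rps14 at 0.07, Rpl12 at -0.79 and Rpl10a at -0.49. Over control library 1, Rpl10a and Rpl12 were at 0.20 and 1.32 and Rps14 at 1.94. The direction of Rps28, Rpl39, Rpl22l1, Rpl12 and Rpl10a therefore turned with the control library.

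Between the models, Rps28, Rps29, Rpl15 and Rpl5 were among the leading genes in other cells too, as far as each comparison's own values go. The summed log2 ratio was -0.17 (-0.18 to -0.15), and 58 members were lower in the angiotensin II library. At -0.5 or less were 3 members (4.56% of all tested genes) and at 0.5 or more 2 members (4.72%). Rps28 was at 284, 515, 126 and 593 CPM and had a log2 ratio of -0.84 (-1.005 to -0.71). Rpl27a had -0.53 (-0.67 to -0.41) and Rps29 -0.53 (-0.63 to -0.44). Rpl15 had 0.62 (0.34 to 0.99), Rps19bp1 0.58 (0.05 to 1.44) and Rpl5 0.42 (0.25 to 0.61). Among other cells with at least 1% tubule markers the sum turned to 0.33, Rps29 to 0.11, Rpl27a to 0.08 and Rps28 to -0.00, so the lower values were found over the whole class and not among the tubule-marked barcodes. With the joined table the sum was 0.07. The whole class also holds cells with 1 or 2 endothelial UMIs and under 1% tubule markers. They numbered 61 on 64847 UMIs for angiotensin II and 139 on 192676 UMIs for salt-sensitive hypertension. Their part in the leading genes found in both classes was not tested.

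Paralogs of ribosomal proteins can replace or accompany their parent in the ribosome. Rpl36al and its parent Rpl36a encode almost the same protein, and in endothelial cells Rpl36al made up 34.6% of their joint UMIs (33.2 to 35.9) under angiotensin II, 27.9% (26.6 to 29.2) in salt-sensitive hypertension, and 43.5% (23.2 to 65.5) and 34.0% (29.0 to 39.3) in control libraries 1 and 2. The salt-sensitive share was the lowest, since Rpl36a was at 586, 798, 378 and 656 CPM while Rpl36al stayed between 291.1 and 338.1 CPM. Rpl22l1 made up 21.6% (20.5 to 22.7), 24.8% (23.6 to 26.0), 28.0% (12.1 to 49.4) and 23.8% (19.7 to 28.3) of its pair with Rpl22. Rps27l, a p53 target, made up 9.77%, 8.85%, 5.13% and 9.43% of its pair with Rps27. In other cells Rps27l made up 4.79% in control library 2 (3.77 to 5.99) against 10.7% to 13.0% in the other 3 libraries. Rps27rt made up 3.07%, 2.82%, 2.63% and 1.33% of its pair in endothelial cells, on 427, 360, 2 and 14 UMIs. The sources used here do not say how reads common to near-identical copies such as Rps27 and Rps27rt were counted, so the values of these pairs are uncertain. Rpl7l1 made up 7.63%, 7.92%, 8% and 8.43% of its pair with Rpl7 in endothelial cells, with overlapping intervals. In other cells it made up 10.6%, 11.1%, 22.5% (17.6 to 28.0) and 8.87%, highest in control library 1.

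Fau and Rpsa, outside the symbol rule, and Rack1, a scaffold bound to the 40S head, were measured on the same scale. Fau, which yields the small subunit protein eS30, was at 2207, 2730, 1455 and 2309 CPM in endothelial cells, with a log2 ratio between the models of -0.31 (-0.34 to -0.27). Rpsa, a small subunit protein also known as a laminin receptor, had -0.13 (-0.19 to -0.07). Rack1 was at 722, 535, 378 and 685 CPM with 0.43 (0.36 to 0.51). All 3 lay within the range of the members, and 0 of 3 passed 0.5 or -0.5.

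Other genes of translation did not share the members' median shift between the models. In endothelial cells the median log2 ratio was 0.00 over 11 elongation factors (0 at 0.5 or more, 1 at -0.5 or less), 0.08 over 37 initiation factors (2 and 0), -0.06 over 43 ribosome biogenesis genes (0 and 2) and -0.08 over 28 genes of translation control (0 and 1). It was 0.07 over 77 mitochondrial ribosomal protein genes (3 and 1) and -0.01 over 7 nascent chain factors and further TOP messenger RNAs (2 and 0), beside -0.03 over all genes. Tpt1, an abundant TOP messenger RNA, was at 4007, 4042, 2096 and 3760 CPM, which differ by a log2 ratio of -0.01 between the models. Btf3, a subunit of the nascent polypeptide-associated complex, was at 467, 299, 175 and 507 CPM with 0.63 (0.54 to 0.74), and its partner Naca at 530, 647, 262 and 472 CPM with -0.28 (-0.36 to -0.21). Ncl and Nop58, nucleolar proteins of ribosome assembly, had -0.57 (-0.70 to -0.46) and -0.61 (-0.97 to -0.40), and Eef2k, the kinase that inhibits elongation, -0.76 (-1.67 to -0.52) at 7.96 and 16.9 CPM. Eif3g, a subunit of initiation factor 3, had 0.54 (0.36 to 0.78).

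Over the summed control the same lists were near 0 in endothelial cells, with medians from -0.06 to 0.18 for angiotensin II and from -0.10 to 0.16 for salt-sensitive hypertension. Over control library 1 alone the medians were higher for each list but translation control: 0.73 and 0.57 for elongation factors, 0.61 and 0.42 for initiation factors, 0.74 and 0.98 for ribosome biogenesis, 0.93 and 0.76 for nascent chain factors and further TOP messenger RNAs, and 0.68 and 0.53 for mitochondrial ribosomal proteins. Initiation factors at 0.5 or more over the summed control numbered 7 of 37 in each, beside 11.8% and 13.9% of all tested genes. In other cells 20 of 77 mitochondrial ribosomal protein genes and 11 of 43 ribosome biogenesis genes were at 0.5 or more in the angiotensin II library over the summed control, beside 11.1% of all tested genes. They numbered 7 and 6 over control library 2 alone (9.75% of all tested genes). For the salt-sensitive library they numbered 10 and 6 over the summed control (9.21%). The excess of endothelial over other cells was smaller for these lists than for the members: the median log2 ratio of the mitochondrial ribosomal protein genes was 0.79, 0.68, 0.35 and 0.92 in the 4 libraries, that of the initiation factors 0.85, 0.58, 0.33 and 0.69, and that of translation control -0.23, -0.27, -0.16 and -0.56. The 7 nascent chain factors and further TOP messenger RNAs came nearest to the members, at 1.55, 1.83, 1.56 and 1.29. The members' medians were 1.80, 1.86, 2.48 and 1.48, and those of all tested genes -0.29, -0.27, -0.31 and -0.40. Of the translation control genes, 12, 9, 9 and 6 were higher in endothelial than in other cells and 16, 19, 17 and 20 lower. Mtor, the kinase upstream of TOP messenger RNAs, was at 32.4, 37.1, 0 and 40.8 CPM in endothelial cells. In other cells it was at 179, 199, 270 and 264 CPM, the reverse of the members but the same side as the median gene. The count of 0 in the 19 cells of control library 1 allows up to 3 UMIs, or 87.3 CPM. Larp1 was at 89.0, 93.8, 146 and 84.5 CPM in endothelial cells and at 210, 194, 227 and 209 CPM in other cells.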

How the data were processed

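Droplet-based 3' single-cell RNA sequencing (Chromium chemistry, per the labels' protocols) was run on 4 groups of 1 library each. The deposited tables hold UMI counts as the authors made them, whole numbers without normalization, for each gene in each cell. Cell Ranger 7.0.0, Seurat 4.1 and mm10 are named in the submitters' processing notes without a role, and filters, intron use and the assignment of shared reads are not given in the sources used here. Tables were matched to groups by name, and no per-sample column was left unused (0).

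UMIs were summed per library and cell class over the 11049 shared genes (98.7% to 99.2% of UMIs) with Python 3.11.15, NumPy 2.4.6 and SciPy 1.17.1. Ratios of single genes are log2 of CPM + 5 for genes with at least 20 UMIs over both groups, and 0.5 or -0.5 serves as the threshold. Intervals are exact (Clopper-Pearson) 95% intervals. They cover counting error only, as the libraries have no replicates, and no p-value was computed. The ratio and interval were tested on simulated counts. Depth per library is given with the cells. Members, gene lists and tests were chosen with earlier results of these data known. Single genes are named by rule: the 6 highest, the 3 highest and 3 lowest per comparison with at least 50 UMIs, paralogs with parents, and stalk and 5S RNP genes. Some genes chosen by these rules are not reported here. Per pathway list the 2 highest and 2 lowest between the models may be named; Tpt1, Mtor, Larp1, Rpl23a and Rpl38 were named after their values were seen. Coding lengths and positions come from the GENCODE M21 annotation of GRCm38, in which all 82 members and 10964 shared genes matched. Start site windows come from RefSeq on GRCm38.p6. Alternatives covered denominators, scaling, pseudocount, UMI minimum, depth, deepest cells, tubule and capillary restrictions, each control library and the joined hypertension table.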

Additional observations from a re-analysis of the deposited data

Results flagged for a closer look

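In endothelial cells the summed members lay on opposite sides of the common control in the 2 hypertension models, at a log2 ratio of -0.049 for the angiotensin II library and 0.20 for the salt-sensitive library. Both are single libraries set against the same control cells, so this difference was not tested. Against control library 2 alone the values were -0.10 and 0.15, and against the 19 cells of control library 1 they were 0.58 and 0.83, on the same side. Cells of the hypertension libraries differed in median depth (4734 and 2343 UMIs) and in the share of arterial-marked cells (88 of 1225 and 260 of 1519), and the part of either in the difference was not tested.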

How the results depend on the processing

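No paired analysis was possible because each group is 1 library and the 2 control libraries are not assigned to a model. In endothelial cells the summed log2 ratio of angiotensin II over control stayed below 0 with all genes of each table in the denominator (-0.067), the median gene set to 0 (-0.033), the mean over cells (-0.014), the stricter endothelial rule (-0.12), the tubule-marker limit (-0.093) and capillary-range cells (-0.18). That of salt-sensitive over control was 0.23 with members left out of the denominator, 0.11 in cells of 1000 to 3000 UMIs, 0.17 without the 5% deepest cells, 0.11 under the stricter rule, 0.16 under the tubule-marker limit and 0.076 in capillary-range cells. Leaving out a control library gave -0.10 to 0.58 for the first and 0.15 to 0.83 for the second. Between the models the endothelial sum was -0.28 with members left out of the denominator, -0.22 with the median gene set to 0 or as a mean over cells, -0.17 in cells of 1000 to 3000 UMIs, -0.23 without the deepest cells or under the stricter rule and -0.27 with the joined table.

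In other cells angiotensin II over control was 0.77 as a mean over cells, 0.60 in cells of 1000 to 3000 UMIs, 0.98 without the deepest cells, 0.83 among tubule-marked cells and 0.76 with the joined table. Salt-sensitive over control was 0.72 with members left out of the denominator, 0.73 with the median gene set to 0, 0.98 as a mean over cells, 0.88 in cells of 1000 to 3000 UMIs, 1.15 without the deepest cells and 0.50 among tubule-marked cells. Leaving out a control library gave -0.36 to 1.34 and -0.20 to 1.51, the medians of the longest members -0.18 to 1.33 and -0.15 to 1.43, and, for salt-sensitive over control, that of the shortest -0.20 to 1.61, each negative without control library 1. Between the models other cells gave -0.21 as a mean over cells, -0.28 in cells of 1000 to 3000 UMIs, 0.33 among tubule-marked cells and 0.074 with the joined table. Among tubule-marked cells Rps29 turned to 0.11 and Rpl27a to 0.078. The cause of these shifts was not tested.

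The 47 members at 0.5 or more for angiotensin II over control in other cells became 77 as a mean over cells, 75 among tubule-marked cells, 80 over control library 1 and 3 over control library 2. The 68 for salt-sensitive hypertension became 32 among tubule-marked cells and 2 over control library 2. In endothelial cells 51 and 70 members reached 0.5 over control library 1, beside 41.1% and 40.1% of all tested genes. Between the models 11 endothelial members were at -0.5 or less with the joined table and 2 in cells of 1000 to 3000 UMIs. Restrictions of single members to capillary-range, depth-limited or tubule-marked cells were chosen after seeing the data. The 19 endothelial cells of control library 1 (34358 UMIs) limit every ratio over it.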

Other observations

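The pseudogenes left out by the symbol rule were counted at low levels: Rpl10-ps3 at 19.0, 21.9, 0 and 17.5 CPM and Rpl9-ps6 at 37.3, 54.0, 29.1 and 29.1 CPM in endothelial cells of the angiotensin II, salt-sensitive, control 1 and control 2 libraries, on 0 to 214 UMIs each. The count of 0 in control library 1 allows up to 87.3 CPM (3 UMIs).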
